A study of Mus musculus with 4 samples.

Results

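The comparison of fosBd/d with wild-type mouse embryonic stem (ES) cells rested on 2 of the 4 arrays in the series, chosen by their titles, and on all 9480 probes of each array. ES cells are pluripotent cells taken from the early embryo. The mutant line was homozygous for the fosBd allele, from which ΔFosB is the only product, and the control was wild type. All cells were starved of serum for 72 h and then given serum for 4 h, and all were grown without feeder cells. Each array carried mutant and wild-type RNA in different dyes, with the mutant in Cy3 on replicate 1 and in Cy5 on replicate 2 (a dye swap). The replicate numbers were given here and are not in the labels. The other 2 arrays compared fosB-null with wild-type ES cells under the same serum regime. The labels speak of a mutant line and do not say how many clones it stood for, whether both arrays of a swap carried the same RNA extracts, or whether all 4 arrays shared the wild-type RNA. P-values therefore reflect differences between arrays alone, and those may be technical.

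FosB is a member of the Fos family, which pairs with Jun proteins to form AP-1, a transcription factor whose subunits are induced within minutes to hours of serum addition. ΔFosB is a shorter FosB protein that lacks the C-terminal part and still pairs with Jun and binds DNA. AP-1 binds the motif TGANTCA and is known for control of growth, adhesion, proteases and differentiation. Primitive endoderm is the first epithelium that splits from the pluripotent cells of the embryo, and it gives rise to visceral endoderm, which absorbs and secretes, and to parietal endoderm, which lays down a thick basement membrane of collagen IV, laminin and nidogen.

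Values are log2 ratios of the channels, taken from deposited values read as log10 ratios. Each array had a median of 0.00. The SD over probes was 0.824 on fosBd/d replicate 1 and 0.652 on replicate 2, and ratios ran from -5.80 to 3.46 and from -2.48 to 3.85. An exact 0 was listed for 10.1% of probes on replicate 1 and 4.46% on replicate 2. Of the 9480 probes, 6566 had 1 gene in the platform annotation and covered 6025 genes, 392 had several genes and 2522 had none listed, and genes are named from the first kind. No named probe represented Fosb, so the targeted gene could not be used to check the labels. Of 11 ES cell markers, 4 were measured (Zfp42, Utf1, Lin28a and Alpl), 2 positive and 2 negative on both arrays. Ratios do not show whether a marker was present.

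The sign of the ratios is open. The 960 exact zeros of replicate 1 are written as minus zero and the 423 of replicate 2 as plain zero, so replicate 1 appears to have been turned before deposit and both arrays to run the same way. If the ratio is Cy5 over Cy3, a positive value is more RNA in fosBd/d. In the labels, however, red is attached to Cy3 and green to Cy5, and a red-over-green ratio read with those words makes a positive value less RNA in fosBd/d. Arrays with the mutant in the same dye correlated negatively across probes between the mutants (r = -0.463 for replicates 1 and r = -0.369 for replicates 2), and positively with the apparent turning undone (0.463 and 0.369), as all 6 pairs of arrays then do. On the fosB-null arrays the marks are placed the other way, with 551 minus zeros on replicate 2 and 478 plain zeros on replicate 1, so in each same-dye pair 1 array appears turned and the other not. Values are therefore given as positive or negative. Turning both fosBd/d arrays would change every fosBd/d sign below and no size or total within that comparison, but it would change the differences from fosB-null, which are given both ways. Across probes the 2 fosBd/d arrays themselves had r = -0.125, or 0.125 with the turning undone.

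A linear model in limma over all 4 arrays, with a dye term, passed 0 of 9480 probes (0.0%) at a Benjamini-Hochberg adjusted p under 0.05. The smallest adjusted p was 0.297. In this fit the dye term takes up any gap between the fosBd/d arrays that the fosB-null arrays match. The spread behind each p is the unmatched rest, pooled in part over probes. A small p there does not show that both fosBd/d arrays agreed. At an unadjusted p under 0.05 there were 932 positive probes (9.83%) and 571 negative probes (6.02%), against 474 in all that a uniform p would give. The positive majority rested on having both arrays. In fits without the dye term, leaving out replicate 1 gave 356 positive and 457 negative probes, and leaving out replicate 2 gave 369 and 604. What follows describes sizes on both arrays and no difference that passed the test. A probe was counted where both arrays showed a ratio of at least 2-fold with the same sign. That rule took 118 positive probes (1.24%) and 32 negative probes (0.338%). In the opposite direction, where the arrays disagreed in sign and each was at least 2-fold, there were 273 probes. Each array alone had more negative than positive probes past 2-fold, 773 against 609 on replicate 1 and 661 against 456 on replicate 2, whereas both together gave more positive ones.

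**Figure D1:**
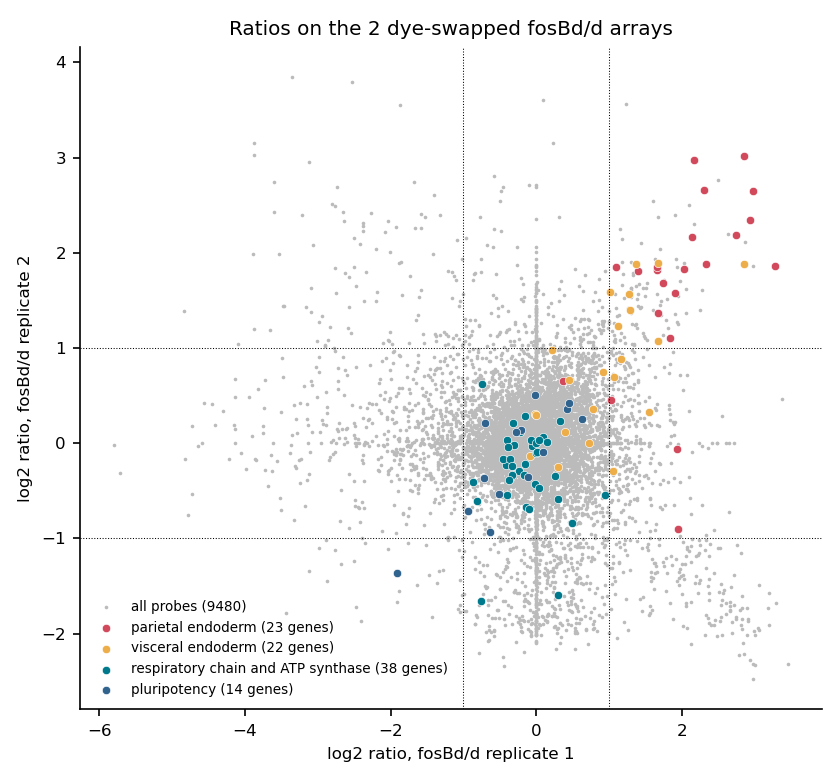
Log2 ratio of each of the 9480 probes on fosBd/d replicate 1 (x axis) and replicate 2 (y axis), in grey, with the genes of 4 lists in colour and dotted lines at a 2-fold ratio. Parietal endoderm genes gather in the upper right corner, where both arrays are positive, while the upper left and lower right corners hold the 273 probes on which the arrays disagree.

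Among probes with 1 gene, 100 were at least 2-fold positive and 17 at least 2-fold negative on both arrays. The 20 positive and 12 negative probes with the highest smaller ratio are described by role below. Their adjusted limma p lay between 0.297 and 0.340, so none passed. At the positive edge of the rule, the smaller ratio was 1.00 for Gpc3, just inside, and 0.998 for Vcam1, just outside. At the negative edge, its size was 1.02 for Alkbh1, just inside, and 0.993 for Thrb, just outside.

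**Figure D2:**
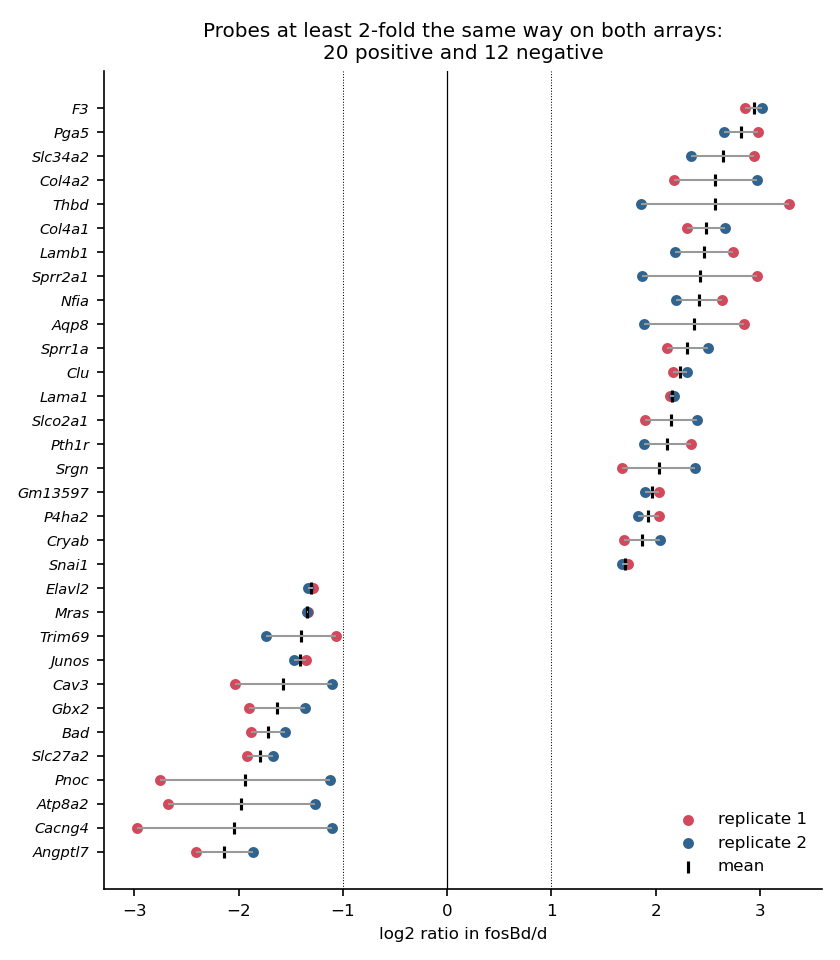
Log2 ratio in fosBd/d of the 20 positive and 12 negative probes, with replicate 1 in red, replicate 2 in blue and the mean as a black tick. F3, Clu, Lama1, Snai1, Mras and Elavl2 have both arrays close together, while Thbd, Pnoc and Cacng4 are spread widely.

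F3 encodes tissue factor, the membrane receptor that starts blood clotting, and it had the highest mean among the 32 probes. Its ratios were 2.86 on replicate 1 and 3.02 on replicate 2, a mean of 2.94 ± 0.11 (SD, n = 2 arrays) or 7.67-fold. Thbd, thrombomodulin, the receptor that turns thrombin toward an anticoagulant role, stood at 3.28 and 1.86. Both are positive on each array, and Thbd is the more uneven of the pair with an SD of 1.00. Other clotting genes past 2-fold on both arrays, grouped here after their values were seen, were the tissue factor inhibitor Tfpi (1.39 and 1.57), the anticoagulant cofactor Pros1 (1.08 and 1.07) and prothrombin, F2 (1.07 and 1.26). Serping1, an inhibitor of complement and contact proteases, had 1.72 and 1.34. Not all clotting genes lay there: F10 had -0.20 and -0.11, F5 had -0.83 and -0.41, and Proc, the protein C zymogen, had -1.88 and -0.22.

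The 250 bases before the annotated start of F3 are shown because 2 matches to the AP-1 motif lie close together there, and those of Sprr1a because its probe is also among the 20 and its window holds 2 matches as well. Sprr1a encodes a small proline-rich protein of the cornified envelope. Capitals mark the motif. Sequences are RefSeq's for build GRCm38.p6, F3 at chr3:121723287-121723536 on the plus strand and Sprr1a at chr3:92485882-92486131 on the minus strand, written 5′ to 3′.
F3: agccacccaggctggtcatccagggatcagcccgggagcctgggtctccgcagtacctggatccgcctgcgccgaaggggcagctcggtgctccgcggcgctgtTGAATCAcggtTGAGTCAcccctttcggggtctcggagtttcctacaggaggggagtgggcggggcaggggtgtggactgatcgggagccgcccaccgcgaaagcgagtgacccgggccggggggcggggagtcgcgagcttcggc
Sprr1a: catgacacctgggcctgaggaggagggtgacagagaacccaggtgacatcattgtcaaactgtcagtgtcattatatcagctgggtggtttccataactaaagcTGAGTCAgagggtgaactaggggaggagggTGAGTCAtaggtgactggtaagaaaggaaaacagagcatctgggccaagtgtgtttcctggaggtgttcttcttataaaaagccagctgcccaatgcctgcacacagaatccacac
In F3 the matches begin 146 bases (TGAATCA) and 135 bases (TGAGTCA) before the start. In Sprr1a both are TGAGTCA and begin 146 and 116 bases before it. The motif was searched on both strands in windows from 250 bases before to 50 after the start. Of the 92 genes at least 2-fold positive on both arrays (1.53% of 6025 genes), 71 had 93 windows in the RefSeq table. The AP-1 motif stood in 10 of those windows (10.8%), belonging to Clic1, F2, F3, Lor, Lrrc15, Me1, Palld, Plaur, Sprr1a and Zyx. Of the 16 genes that were 2-fold negative on both arrays (0.266% of genes), 12 had 25 windows, and the motif stood in 2 of them (8%), both of Junos. It stood in 362 of 6150 windows (5.89%) of all measured genes. A match is a description of the letters and not a binding site.

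Sprr1a had ratios of 2.11 and 2.50, a mean of 2.30 ± 0.28 (SD, n = 2) or 4.93-fold. A relative, Sprr2a1, had 2.97 and 1.87, and Lor (loricrin, another cornified envelope protein) had 1.47 and 1.15. All 3 were positive past 2-fold on both arrays and were grouped after their values were seen. A cDNA probe for Sprr2a1 can also bind other members of its near-identical family.

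Basement membrane genes stood on the positive side. The collagen IV chain Col4a1 had ratios of 2.30 and 2.66, a mean of 2.48 ± 0.25 (SD, n = 2) or 5.59-fold, and its partner Col4a2 had 2.17 and 2.97, or 5.95-fold. Both chains form the same triple helix, and their genes lie head to head. The 250 bases before the Col4a1 start are shown for this reason (GRCm38.p6, chr8:11312827-11313076, minus strand). Capitals mark its last 28 bases, which also lie in the window of Col4a2 on the other strand. In full the windows of the pair share 78 bases.
Col4a1: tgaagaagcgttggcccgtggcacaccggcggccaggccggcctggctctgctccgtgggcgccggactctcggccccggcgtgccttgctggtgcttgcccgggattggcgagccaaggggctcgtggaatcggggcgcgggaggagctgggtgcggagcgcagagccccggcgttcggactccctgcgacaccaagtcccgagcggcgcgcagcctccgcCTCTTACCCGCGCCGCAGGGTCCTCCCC
No AP-1 match lies in this window of Col4a1. The laminin chains followed. Lama1, the α1 chain, had 2.14 and 2.17, the closest pair among these chains. Lamb1, the β1 chain, had 2.74 and 2.19, and Lamc1, the γ1 chain, had 1.91 and 1.58. These 3 chains make the trimeric laminin of the embryonic basement membrane. Nid1, the nidogen that links laminin to collagen IV, had 1.10 and 1.85, and Pxdn, the peroxidase that cross-links collagen IV, had 1.26 and 1.42. Both lay past 2-fold on each array.

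Of 33 basement membrane genes listed, 21 were measured and 15 were positive on both arrays, where 25.0% of all genes were. Another 2 were negative on both, where 24.2% of all genes were. At least 2-fold positive on both arrays were 7 (33.3%, against 1.53% of all genes). At an unadjusted p under 0.05, 11 were on the positive side, where 12.3% of all genes were. The median was 0.51, with 0.54 on replicate 1 and 0.46 on replicate 2, beside -0.02 over all genes. No list was tested as a set, and all lists were chosen with earlier results of these data known. The list was uneven. Chains of other laminins were lower, with 0.56 and 0.29 for Lama4, 0.10 and 0.03 for Lamb3, and 0.00 and 0.04 for Lama2. The lowest means were those of Smoc2 (-0.12 and -0.35) and Col18a1 (-0.24 and -0.25).

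Enzymes that modify collagen in the endoplasmic reticulum lay on the same side. P4ha2, a catalytic subunit of the prolyl hydroxylase that stabilises the collagen helix, had 2.03 and 1.83, a mean of 1.93 ± 0.14 (SD, n = 2) or 3.81-fold. P4ha1, the other catalytic subunit measured, had 1.65 and 1.85. P4hb, their shared partner and a disulfide isomerase, had 1.53 and 0.99. All 3 subunits were positive on each array, with P4hb just under 2-fold on replicate 2. The lysyl hydroxylases Plod1 (1.84 and 1.10) and Plod3 (1.26 and 0.84) and the chaperone Hspa5 (1.08 and 0.83) followed. Of 18 measured members of this list, 16 were positive on both arrays (88.9%, against 25.0% of all genes) and 2 negative (11.1%, against 24.2%). At an unadjusted p under 0.05, 14 were on the positive side, where 12.3% of all genes were. The median was 0.63, with 0.58 on replicate 1 and 0.65 on replicate 2. Loxl1, a cross-linking enzyme that acts outside the cell, was the lowest, at -1.06 and -0.45, and Mia3, a cargo receptor for secreted collagen, had -0.55 on replicate 1 and a value just under 0 on replicate 2.

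Matrix genes of other tissues did not share these values. Of 18 measured, 6 were positive (33.3%, against 25.0% of all genes) and 4 negative (22.2%, against 24.2%) on both arrays. The median was 0.06. Ccn1, a matricellular protein induced by serum, had 1.38 and 1.52, and Eln (elastin) had 1.09 and 1.57. The fibrillar collagen chains were mixed, with -0.46 and 0.61 for Col1a1, -0.06 and 0.55 for Col1a2, and -0.94 and -0.04 for Col5a2. Col12a1, at -1.74 and -0.04, was the lowest by mean.

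The parietal endoderm list had the highest median of the 37 lists. Of 32 genes, 23 were measured. 21 were positive (91.3%, against 25.0% of all genes) and 0 negative (against 24.2%) on both arrays. At least 2-fold positive on both were 18 (78.3%, against 1.53%). The median was 1.75, with 1.94 on replicate 1 and 1.83 on replicate 2. Several of its members had been chosen on these samples, and it shares the collagen IV, laminin and nidogen genes with the basement membrane list, so its count is not independent evidence of direction. Pga5, a pepsinogen, had 2.98 and 2.65, a mean of 2.81 ± 0.23 (SD, n = 2) or 7.04-fold. Slc34a2, a sodium-phosphate cotransporter, had 2.94 and 2.34, and Pth1r, the receptor through which parathyroid hormone-related protein promotes parietal endoderm, had 2.34 and 1.89. These 3 probes were past 2-fold on both arrays. Krt8, an early keratin, had 1.65 and 1.82, and Pdgfra, a growth factor receptor of the lineage, had 1.68 and 1.37. The members whose arrays differed most were Krt19 (1.95 and -0.90) and Plat, tissue plasminogen activator (1.94 and -0.06), both high on replicate 1 only. Ratios in RNA from whole cultures cannot tell a different number of such cells from a different amount of RNA per cell. Their part in the other results was not tested.

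Transcription factors of the primitive endoderm were measured for 10 of 20 genes. 8 were positive (80%, against 25.0% of all genes) and 0 negative (against 24.2%) on both arrays. At least 2-fold positive were 5 (50%, against 1.53%), and the median was 1.15 (1.60 on replicate 1 and 0.92 on replicate 2). Gata6, which drives primitive endoderm fate, had 1.95 and 1.55, a mean of 1.75 ± 0.28 (SD, n = 2) or 3.36-fold. Foxa2, a forkhead factor of endoderm, had 1.65 and 1.81. Snai1, a repressor of epithelial genes that comes on as parietal endoderm forms, had 1.74 and 1.68. These 3 factors had close values on both arrays. Cited2 and Cited1, co-activators without DNA binding of their own, had 1.30 and 1.90, and 1.67 and 1.07. Klf6 had 0.80 and 0.77 and Eomes had 0.34 and 0.51. The rest were uneven: Hnf4a, a regulator of visceral endoderm, had 1.55 and 0.33, Sox17 had 2.83 and -1.95, and Snai2 had -3.28 and 0.11.

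Visceral endoderm genes were positive less far. Of 22 measured from 37 listed, 16 were positive (72.7%, against 25.0% of all genes) and 1 negative (4.55%, against 24.2%) on both arrays. At least 2-fold positive were 8 (36.4%, against 1.53%), and the median was 0.85 (1.03 on replicate 1 and 0.72 on replicate 2). Aqp8, a water channel, had 2.85 and 1.89. Lrp2 (megalin), the endocytic receptor of the apical membrane, had 1.67 and 1.90, and Amn, which anchors its partner cubilin, had 1.44 and 1.43 on 1 probe and 0.68 and -0.04 on the other. Lrp2 thus had like values on both arrays, while the 2 Amn probes did not agree in size. Secreted products included the trypsin inhibitor Spink1 (1.38 and 1.88) and the thyroxine carrier Ttr (1.01 and 1.59), both 2-fold on each array. Afp, α-fetoprotein, was uneven at 1.05 and -0.29. The apolipoproteins were near 0 or modest, with 0.46 and 0.66 for Apob, 0.73 and 0.00 for Apoa1, and -0.09 and -0.13 for Apoc2, the lowest member.

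Lysosomal and endocytic genes, 21 measured of 45, showed a median of 0.60. On both arrays 15 were positive (71.4%, against 25.0% of all genes) and 2 negative (9.52%, against 24.2%). At an unadjusted p under 0.05, 13 were positive (against 12.3% of all genes) and 0 negative (against 7.19%). The cathepsins Ctsl (1.40 and 1.81) and Ctsh (1.28 and 1.57) were past 2-fold on both arrays, as was Ap1m2, a subunit of the epithelial clathrin adaptor, at 1.24 and 3.56. The sialidase Neu1 had 1.32 and 0.74 and the cholesterol transfer protein Npc2 had 0.95 and 0.51. Structural membrane proteins were lower and even, with 0.67 and 0.42 for Lamp1 and 0.49 and 0.72 for Lamp2. Ctsb, another cathepsin, was the lowest member at -0.43 and -0.10, so cathepsins did not all lie on one side. Clu, a secreted chaperone taken up through megalin, is outside the list and had 2.17 and 2.30, or 4.71-fold.

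**Figure D3:**
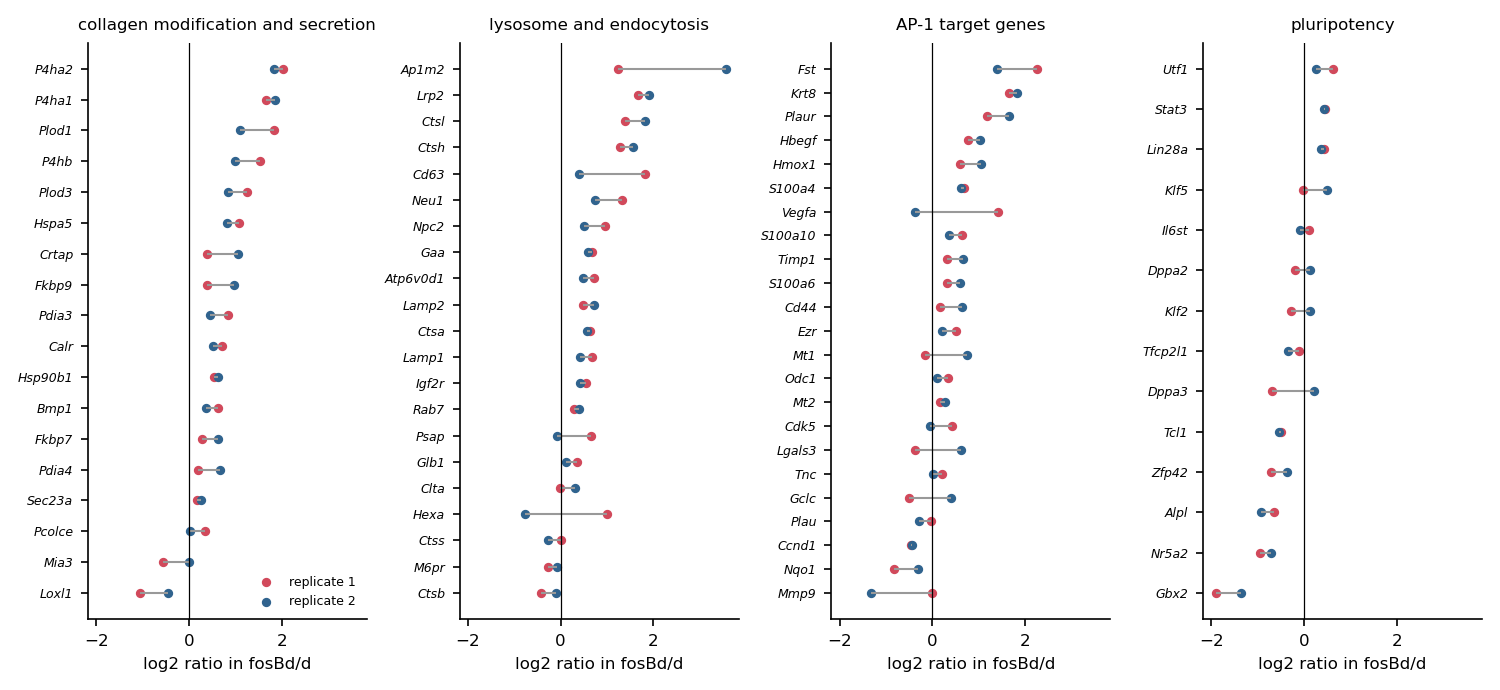
Log2 ratio in fosBd/d of every measured gene in 4 lists, with replicate 1 in red, replicate 2 in blue and a grey line joining them. In the collagen list 16 of 18 genes have both points right of 0, in the lysosome list 15 of 21 and in the AP-1 target list 14 of 23. The pluripotency list has 6 of 14 with both points left of 0. Of all genes, 25.0% are positive and 24.2% negative on both arrays.

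The AP-1 subunits and partners themselves had smaller ratios. All 10 measured of 28 are given here. Bach1, a partner of the small Maf proteins, had 0.64 and 1.10. Jund had 0.55 and 0.45, Fos had 0.11 and 0.82 and Maff had 0.05 and 0.53. These 4 were positive on both arrays (40%, against 25.0% of all genes) and none reached 2-fold on both. Atf2 (0.23 and 0.00), Junb (0.28 and -0.12) and Atf4 (0.12 and -0.07) were near 0. Nfe2l1 differed in sign, 0.83 and -0.82, Cebpg had -0.25 and 0.02, and Maf, at -0.08 on both arrays, was the only subunit negative on both. The median was 0.10, with 0.18 on replicate 1 and 0.01 on replicate 2. Junos, a transcript opposite Jun, had -1.36 and -1.47, a mean of -1.41 ± 0.08 (SD, n = 2) or 2.66-fold, and was among the 12 negative probes. A double-stranded cDNA probe does not tell the strands of Jun and Junos apart where they overlap, and no named probe represented Jun.

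Genes taken as AP-1 targets had a median of 0.36 over 23 of 35. On both arrays 14 were positive and 3 negative, and at an unadjusted p under 0.05 there were 10 positive and 3 negative. Fst, follistatin, which binds activin, had 2.25 and 1.40. Plaur, the urokinase receptor, had 1.18 and 1.66, and the growth factor Hbegf had 0.78 and 1.03. Fst and Plaur were thus past 2-fold on both arrays, as was Krt8. Vegfa was uneven at 1.42 and -0.37. On the negative side were the cyclin Ccnd1 (-0.45 and -0.44) and the quinone reductase Nqo1 (-0.82 and -0.31), and the protease Mmp9 had 0.00 and -1.33. The targets therefore lay on both sides, with more of them positive than negative on both arrays.

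Of 32 serum response genes measured, 17 were positive (53.1%, against 25.0% of all genes) and 3 negative (9.38%, against 24.2%) on both arrays. The list median was 0.35 (0.39 on replicate 1 and 0.23 on replicate 2). Rhob, a small GTPase, had 0.78 and 1.49, and Fhl2, a LIM-domain cofactor, had 0.64 and 1.60. Egr3, an early zinc finger factor, had 0.82 and 0.80, but Ier2, another immediate early gene, had 0.12 and 0.00. The muscle actins Acta2, Actg2 and Acta1 had 1.42, 1.69 and 1.58 on replicate 1 but 0.01, -0.21 and -0.16 on replicate 2. cDNA probes of these near-identical actins can share signal. Cnn1, calponin, was negative on both arrays at -0.71 and -0.90. The list of 24 actin and contraction genes had medians of 0.41 and -0.13 on the 2 arrays, so its sign depended on the array.

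Of 19 integrin and focal adhesion genes, 10 were positive (52.6%, against 25.0% of all genes) and 1 negative (5.26%, against 24.2%) on both arrays. The median was 0.46, with 0.59 on replicate 1 and 0.16 on replicate 2, and Zyx, a focal adhesion protein, had the only 2-fold pair, 1.08 and 1.10. The integrin Itgav differed between arrays, 1.58 and -0.65. Of 18 annexins and S100 proteins, 11 were positive (61.1%, against 25.0% of all genes) and 0 negative (against 24.2%) on both arrays. Their median was 0.48. The calcium-binding S100g had 1.38 and 1.65, and Anxa5 had 1.00 and 1.28, the former 2-fold on both arrays. The probes of Anxa2 differed in size, 1.71 and 1.49 on 1 probe and 0.69 and 0.34 on the other. S100b, at 0.00 and -1.59, was the lowest member.

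Of 28 keratin and junction genes, 14 were positive (50%, against 25.0% of all genes) and 2 negative (7.14%, against 24.2%) on both arrays. The median was 0.21. The claudin Cldn6 had 1.94 and 1.25, and Cldn7 had 2.08 and 0.72. E-cadherin, Cdh1, had 0.50 and 0.61, while N-cadherin, Cdh2, had -0.47 and -0.38. The epithelial cadherin was thus positive and the neural one negative on both arrays, each under 2-fold.

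Metabolic lists with positive medians included glycolysis and hypoxia (0.44, or 0.57 on replicate 1 and 0.27 on replicate 2). Of its 20 genes, 8 were positive (40%, against 25.0% of all genes) and 2 negative (10%, against 24.2%) on both arrays. Sterol and fatty acid synthesis had a median of 0.40 (0.33 on replicate 1 and 0.16 on replicate 2). On both arrays 7 of its 14 genes were positive (50%) and 2 negative (14.3%). The highest of the first were the prolyl hydroxylase subunits already given. The glycolytic enzyme Tpi1 had 0.92 and 0.30, and Eno2, a neural enolase, had 0.17 and -1.79. In the second list, Scd1, a desaturase, had 0.48 and 1.24 and Elovl5, a fatty acid elongase, had -0.11 and -0.90. Neither list was of one sign throughout.

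Further positive probes among the 20 belonged to none of these roles. Slco2a1, a prostaglandin transporter, had 1.90 and 2.40. Cryab, a small heat shock protein, had 1.70 and 2.04, and Srgn, the proteoglycan serglycin, had 1.68 and 2.38. All 3 were higher on replicate 2, with SDs of 0.353, 0.239 and 0.498. Gm13597, a predicted transcript, had 2.03 and 1.89. Nfia, a nuclear factor, had 2.64 and 2.20 on 1 probe but 0.77 and 0.13, and 0.42 and -1.67, on its other probes, so its probes did not agree. The remaining 80 positive probes had means between 1.07 and 2.40. Ccnd2, a D-type cyclin, at 2.28 and 1.61, Dnmt3b, a DNA methyltransferase, at 1.41 and 1.67, Runx1, a blood and epithelial transcription factor, at 1.70 and 1.45, and Fgf10, at 1.42 on both arrays, were among them and were picked after their values were seen.

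The negative probes had no list common to them all, though Gbx2 and Pnoc are both in the neural and ectoderm list. Angptl7, a secreted angiopoietin-like protein, had -2.41 and -1.87, a mean of -2.14 ± 0.38 (SD, n = 2) or 4.39-fold. Slc27a2, which activates and takes up long-chain fatty acids, had -1.92 and -1.67, and Bad, a promoter of apoptosis, had -1.88 and -1.56. These 3 were at least 2-fold negative on each array. Gbx2, a homeobox factor of pluripotent cells and of the hindbrain, had -1.90 and -1.36, or 3.10-fold. Mras, a Ras-family GTPase, had -1.34 on both arrays and the smallest SD of the 32 probes, 0.00314. Elavl2, a neural RNA-binding protein, had -1.28 and -1.33 on 1 probe, -0.62 on both arrays for another, and -0.53 and 0.21 on the last. Trim69 had -1.07 and -1.74. Replicate 1 was far lower than replicate 2 for Cacng4, a calcium channel subunit (-2.98 and -1.10), Pnoc, the nociceptin precursor (-2.76 and -1.12), and Atp8a2, a lipid flippase (-2.68 and -1.27). Cav3, muscle caveolin, had -2.03 and -1.11. The 5 other negative probes had means between -1.70 and -1.09. Among them were Ptch1, the Hedgehog receptor, at -1.06 and -1.12, and Sox6, at -1.76 and -1.05, picked after their values were seen.

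Pluripotency genes were measured for 14 of 40, and the main factors Pou5f1, Sox2 and Nanog had no named probe. Of the 14, 3 were positive (21.4%, against 25.0% of all genes) and 6 negative (42.9%, against 24.2%) on both arrays. The median was -0.15, with -0.24 on replicate 1 and 0.02 on replicate 2. Utf1, a chromatin protein of ES cells, had 0.63 and 0.26, and Stat3, which relays the LIF signal, had 0.46 and 0.42. Nr5a2, a nuclear receptor, had -0.94 and -0.71, and Alpl, alkaline phosphatase, had -0.64 and -0.93. Zfp42 (Rex1), a marker of naive cells, had -0.72 and -0.37. The members thus lay on both sides, with Gbx2 the only one past 2-fold on both arrays.

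Cell cycle and DNA replication genes were mostly small and negative. Of 52 measured, 2 were positive (3.85%, against 25.0% of all genes) and 20 negative (38.5%, against 24.2%) on both arrays. The median was -0.14 (-0.25 on replicate 1 and -0.21 on replicate 2). At an unadjusted p under 0.05, 10 were on the negative side, where 7.19% of all genes were. Ccnb2, a mitotic cyclin, had -0.67 and -0.55, and Cdk1 had -0.65 and -0.34. Ccnd2 was the exception by size, and Cdc25c differed between arrays, at -2.98 and 0.91. Of 38 respiratory chain and ATP synthase genes, 4 were positive (10.5%, against 25.0%) and 19 negative (50%, against 24.2%) on both arrays. The median was -0.18 (-0.15 and -0.22), and 7 had an unadjusted p under 0.05 on the negative side (against 7.19% of all genes). The complex I subunit Ndufa5 had -0.76 and -1.65 and Ndufc2 had -0.81 and -0.60, while Cox8a had 0.33 and 0.23. Ratios in both lists were far smaller than those of the endoderm genes. The 22 ribosomal protein genes had a median of -0.13 (-0.01 and -0.13). On both arrays 2 were positive (9.09%, against 25.0% of all genes) and 7 negative (31.8%, against 24.2%).

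**Figure D4:**
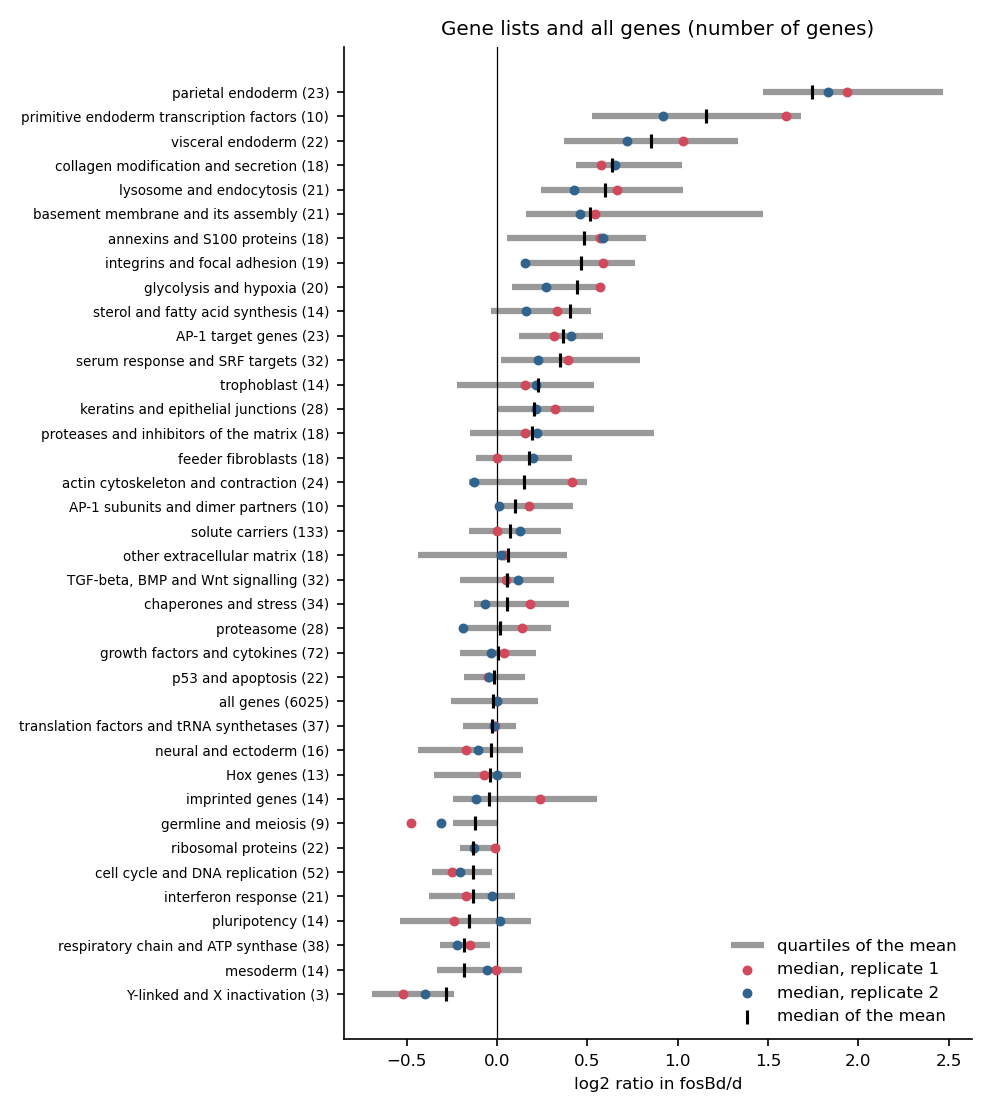
For each of the 37 lists and for all 6025 genes, the median log2 ratio in fosBd/d (black tick), the quartiles (grey bar) and the median on replicate 1 (red) and replicate 2 (blue). Parietal endoderm has the highest median, 1.75, all genes lie at -0.02, and the Y-linked and X inactivation list of 3 genes is lowest.

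Lists for other cell types stayed closer to the median of all genes than the endoderm lists did. Feeder fibroblast genes had a median of 0.18 over 18 genes, with 0.00 on replicate 1 and 0.20 on replicate 2. On both arrays 9 were positive (50%, against 25.0% of all genes) and 5 negative (27.8%, against 24.2%). Trophoblast genes had a median of 0.22 over 14, among them Plac1, a placental protein, at 1.30 and 1.37, and the spongiotrophoblast gene Tpbpa at -1.63 and -0.31. Mesoderm genes had a median of -0.18 over 14, but -0.01 on replicate 1 and -0.06 on replicate 2. Tal1, a blood transcription factor, was lowest at -1.35 and -0.20. Neural and ectoderm genes had a median of -0.04 over 16, but -0.17 on replicate 1 and -0.11 on replicate 2. They ran from Nefm, a neurofilament, at 0.21 and 1.47 to Pnoc. Past 2-fold on both arrays were 2 trophoblast genes, Krt8 and Plac1, on the positive side (14.3% of the list, against 1.53% of all genes) and 2 neural genes, Gbx2 and Pnoc, on the negative side (12.5%, against 0.266%). The feeder and mesoderm lists had 0. The 9 germline genes had a median of -0.12, but -0.48 on replicate 1 and -0.31 on replicate 2. The 21 interferon response genes had -0.14 (-0.18 on replicate 1 and -0.03 on replicate 2).

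The remaining lists had medians between -0.05 and 0.19. They were matrix proteases and their inhibitors (0.19), solute carriers (0.07), chaperones (0.05), TGF-β, BMP and Wnt signalling (0.05), proteasome (0.02), growth factors and cytokines (0.01), p53 and apoptosis (-0.02), translation factors (-0.03), Hox genes (-0.04) and imprinted genes (-0.05). The median hides part of the protease list, where 4 of 18 genes were at least 2-fold positive on both arrays (22.2%, against 1.53% of all genes). These were Plaur, Tfpi, Ctsh and Ctsl, given above. On both arrays 8 of its genes were positive (44.4%, against 25.0%) and 5 negative (27.8%, against 24.2%). In other lists, too, single genes stood out from the rest. Igf2, an imprinted growth factor, had 0.91 and 1.43, while Meg3, an imprinted noncoding RNA, had -0.99 and -0.74. Among the 3 sex-linked genes measured, the Y-linked Eif2s3y had -0.70 and -1.50 and Kdm5d had 0.00 and -0.40, and Xist, which coats the inactive X, had -0.52 and -0.04.

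Some genes were far from 0 on 1 array and not on the other, or on opposite sides. The 6 with the largest gaps were Arpp21 (-3.88 and 3.03), Astn1 (-4.83 and 1.39), Lclat1 (-3.89 and 1.99), Fcrl1 (-5.80 and -0.02), Prl7a2 (-2.74 and 2.69) and Sycp3 (-5.71 and -0.31). In all 6 replicate 1 was the lower array. By chromosome, the median of all measured genes lay between -0.06 and 0.04 for the 20 chromosomes other than Y, each with 158 to 518 genes. Each of them held 2-fold positive genes, 1 to 13 per chromosome. The share ran from 0.262% of genes on chromosome 4 to 3.14% on the X, against 1.53% of all genes.

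The promoters of the positive genes were also searched for 3 other motifs. A cyclic AMP response element, TGACGTCA, stood in 1 of the 93 windows (1.08%), that of Cldn6, and in 2.50% of all windows. The GATA motif AGATAA stood in 6 windows (6.45%), of Ankrd1, Dpp4, Foxa2, Krt8, Plac1 and Tfpi, and in 7.15% of all. It stood in 3 of 25 windows of the 2-fold negative genes (12%), of Junos and Sox6. In the parietal endoderm list it stood in 2 of 21 windows (9.52%), of Krt8 and Stra6. The serum response element, searched in 2 spellings, stood in 0 of 93 windows and in 6 of 6150 (0.0976%). In the parietal endoderm list the AP-1 motif stood in 1 of 21 windows (4.76%), that of F3. Motifs were searched on both strands, and AP-1 matches here cannot be the cyclic AMP element, whose letters differ in the middle.

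The fosB-null arrays show how the same probes stood in the other mutant. Both comparisons use wild-type cells as control, and the direction of neither is settled. By the labels and the marks on zeros the mutants run in opposite orientations, so that one sign would mean more mutant RNA in one and less in the other. A single convention for all 4 deposited arrays would give both the same orientation. Values are given as deposited, with the turned reading beside the counts and differences. For F3 the fosB-null ratios were -0.57 and -0.79, for Thbd -1.01 and -1.88, and for Lamb1 -1.12 and -0.46. As deposited, these 3 were opposite in sign to fosBd/d on both arrays. Col4a1 had -0.16 and -0.51, Col4a2 had 0.20 and -0.57, and Pga5 had -0.02 and 0.00. Of the 20 positive probes, 12 were negative and 2 positive on both fosB-null arrays, and of the 12 negative probes, 5 were positive and 4 negative. Of all 9480 probes, 1797 were negative and 1767 (18.6%) positive on both fosB-null arrays. No reading is drawn from these counts, since both comparisons may share wild-type RNA. Atp8a2 had the largest fosB-null ratios among the 32, at 1.89 and 2.21. With the fosB-null sign turned, these counts exchange places.

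Some visceral endoderm genes, of which Ctsh is also in the lysosomal list, had the same deposited sign in both mutants. They were picked after their values were seen, and matching members were not counted. Ctsh had 1.72 and 1.29 on the fosB-null arrays, Spink1 had 1.52 and 1.10, Ttr had 1.12 and 0.87, and Cited1 had 1.05 and 1.34. These are like their fosBd/d values as deposited and opposite with the fosB-null sign turned. The parietal endoderm list had a fosB-null median of -0.34 and the visceral endoderm list 0.29.

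In limma, the difference of fosBd/d minus fosB-null passed for 0 probes, with a smallest adjusted p of 0.357 for deposited signs and 0.524 once the fosB-null sign is turned. At an unadjusted p under 0.05 there were 1320 and 865 probes. The difference for F3 was 3.62 as deposited and 2.26 turned, so it kept its sign. For Thbd it was 4.02 and 1.13. For Atp8a2 it was -4.03 as deposited and 0.08 turned, and for Slc27a2 -2.77 and -0.82. The size of these differences therefore depended on a sign that the labels do not settle.

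**Figure D5:**
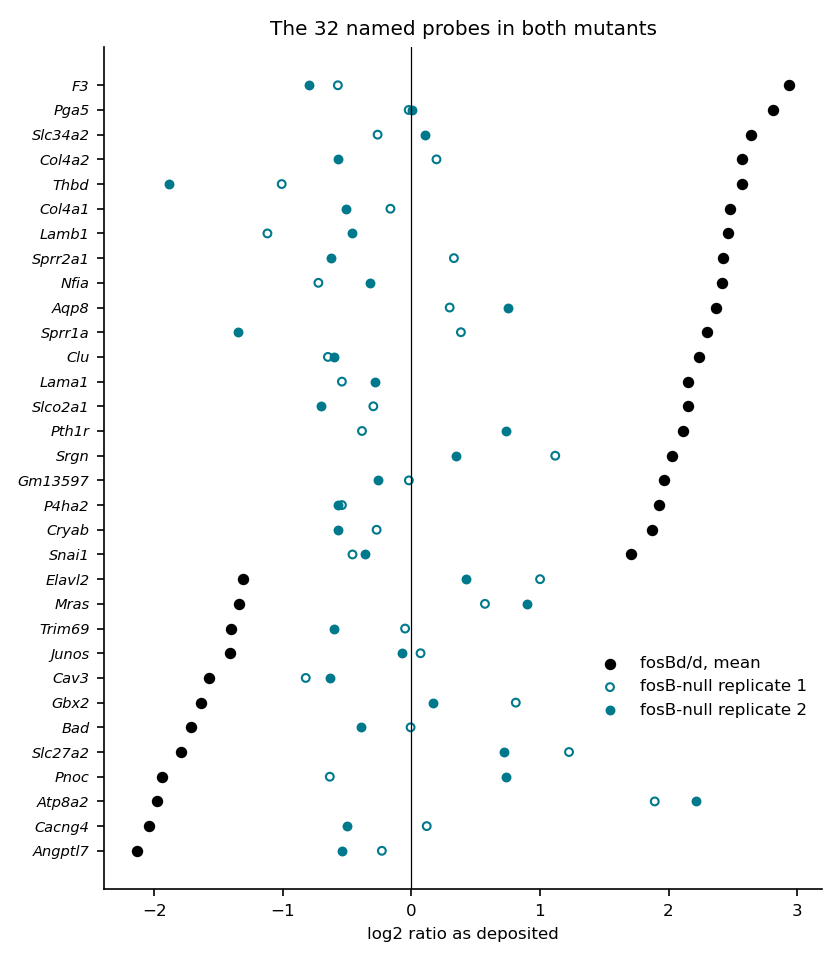
Deposited log2 ratio of the 32 probes, with the fosBd/d mean as black points and fosB-null replicates 1 and 2 as open and filled circles. The fosB-null values lie closer to 0 for all probes except Atp8a2, and 12 of the 20 positive probes are negative on both fosB-null arrays.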

How the data were processed

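RNA of mutant and wild-type ES cells was hybridised to 4 Agilent mouse cDNA arrays with 2 colours. The deposited values, 1 for each probe on each array, were read as log10 ratios, the definition used by Agilent Feature Extraction, which the submitters' processing notes name. Version, background correction, dye normalization, filters and log base: not given in the sources used here. The scale of every fold therefore rests on reading the values as log10. Values were multiplied by 3.32193 to give log2 ratios and used with the deposited signs. Precision is limited by the number of arrays.

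Probes were named from an old platform annotation and updated by identifier through RefSeq's GRCm38.p6 gene table (6496 of 6566 probes matched, 70 kept the older name). Probes of a gene were averaged for the lists. limma 3.58.1 (R 4.3.3) modelled all 4 arrays with 1 effect for each mutant and 1 for dye, coded from the sign marks on zeros, which left 1 residual degree of freedom. Two-sided p-values were adjusted by Benjamini-Hochberg and read at 0.05. The step was run on simulated data with a smaller spread than these arrays. That run checks the code and not the power on these arrays. Means are given with the SD over 2 arrays.

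The named probes were the 20 positive and 12 negative 1-gene probes with the highest smaller ratio among those past 2-fold in one direction on each array. In lists described, the highest, lowest and most uneven members were named, with all members of lists of at most 12, all AP-1 subunits and sex-linked genes, and the 6 genes whose arrays differed most. Further list members were picked after their values were seen. Members and lists were chosen with earlier results of these data known. Alternatives covered the dye term, array scaling, probes at 0, log base, fold, probes per gene, array left out and the fosB-null sign.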

Additional observations from a re-analysis of the deposited data

Results flagged for a closer look

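For 10 of 37 lists, both fosBd/d arrays had a median on one side of 0 and both fosB-null arrays a median on the other. The difference was not tested for any of them, and the comparisons share wild type as control. With the fosB-null sign turned, all 10 would lie on one side. Several of the 10 share genes, and some medians of single arrays lay near 0. Feeder fibroblasts had 0.0007 on fosBd/d replicate 1, and the interferon response had -0.03 on fosBd/d replicate 2. Other extracellular matrix had 0.04 and 0.02 on the fosBd/d arrays and -0.01 on fosB-null replicate 2. Medians over the genes measured were 1.75 in fosBd/d and -0.34 in fosB-null for parietal endoderm, 0.51 and -0.21 for basement membrane, and 0.63 and -0.10 for collagen modification. They were 0.062 and -0.10 for other extracellular matrix, 0.36 and -0.03 for AP-1 targets, and 0.35 and -0.06 for the serum response. Feeder fibroblast genes had 0.18 and -0.17, sterol and fatty acid synthesis 0.40 and -0.17, and keratins and junctions 0.21 and -0.06. The interferon response ran the other way, at -0.14 and 0.07.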

How the results depend on the processing

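At an adjusted p under 0.05, 0 probes passed in limma for fosBd/d and for fosBd/d minus fosB-null under every alternative run. For fosBd/d the smallest adjusted p lay between 0.195 and 1.00. At an unadjusted p under 0.05 the 1503 fosBd/d probes became 709 without the dye term, 270 with the dye term coded by the labelled dye, 351 with the fosBd/d arrays alone and 351 to 973 with 1 array left out. The 1320 probes of the difference became 539 without the dye term, 865 with the fosB-null sign turned and 149 to 827 with 1 array left out.

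The 150 probes past 2-fold in one direction on both arrays became 445 at 1.5-fold and 38 at 3-fold. They became 0 with the values read as log2 and 4 as natural log, so the count rests on the log base. By the mean of both arrays there were 520 (215 positive and 305 negative), with replicate 1 turned 273 (106 and 167), and on 1 array alone 1117 to 1382. Positive probes made up 78.7% under the main rule, 41.3% by the mean, 38.8% with replicate 1 turned, and 44.1% and 40.8% on replicates 1 and 2 alone. Of 37 list medians, 16 moved by more than the spread between arrays with either array left out, 5 with arrays scaled to one spread, 5 without probes at 0 and 2 with 1 probe per gene. Of 38 named means, 12 moved with scaling and 2 over all probes. The sign of 7 list medians turned under some alternative, 6 of them with 1 array left out (actin and contraction, pluripotency, proteasome, chaperones, growth factors and imprinted genes). So did 4 of the 38 means, all of genes named because their arrays disagreed (Arpp21, Astn1, Lclat1 and Prl7a2). The means of the 20 positive and 12 negative probes kept their sign, which for single arrays the rule that chose them fixes. No test paired arrays across mutants, and the labels carry no replicate numbers. Arrays with the mutant in the same labelled dye were compared by correlation. Each ratio already pairs mutant and wild type within an array.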
